A study of Mus musculus with 2 samples.

Results

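Effector alpha-beta T cells were picked out of a droplet single-cell RNA survey of the mouse infarct, and 242 of 22084 filtered cells met the rule: 17 cells of the GFPhi library and 225 cells of the GFPlo library. A cell qualified when it held unique molecular identifiers (UMIs, each counting 1 captured transcript) of at least 2 of the 5 genes Cd3d, Cd3e, Cd3g, Trac and Trbc2, which encode CD3 chains and constant regions of the alpha-beta T cell receptor. It also had to hold a UMI of at least 1 of Nkg7, Ifng, Cxcr6 and Icos, which mark effector function. Cells with any UMI of Dntt, Arpp21, Ptcra or Trdc were left out, and so were cells with 2 or more of the natural killer (NK) genes Ncr1, Klrb1c, Klre1 and Klra8. Summed C1qa, C1qb and C1qc had to stay under 30 UMIs per 10000, and summed Col1a1, Col1a2 and Col3a1 under 100 UMIs per 10000. The cells were thus chosen by their UMIs of these genes, whose levels are a description and support nothing else.

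Both libraries came from infarct-zone cells freed of cardiomyocytes, from mice that carried 2 alleles, p16-2A-CreER and R26-mTmG. Tamoxifen was given by gavage on day 5 after myocardial infarction, hearts were taken on day 7, and cells were sorted into the GFP-high fraction (GFPhi) and the GFP-low fraction (GFPlo), which other labels call positive and negative. The R26-mTmG allele makes membrane tomato until Cre acts and membrane GFP from then on, also in daughter cells, so GFP records p16 promoter activity around the time of tamoxifen and not p16 on the day of harvest. The sources used here give neither age, sex nor how many mice were pooled, and no uninjured heart or Cre-negative control was analysed here. Each fraction gave 1 library, so no difference could be tested; all intervals are exact 95% intervals that cover counting error only.

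Effector T cells arise when a T cell meets antigen and enters tissue armed. CD8 cells kill targets with granzymes and perforin released from granules, and CD4 cells act largely through cytokines and through contacts such as CD40 ligand. Interferon gamma, encoded by Ifng, activates macrophages. NKG7 is a granule membrane protein, CXCR6 is the receptor of the chemokine CXCL16 and is common on tissue T cells, and ICOS is a costimulatory receptor of activated T cells. In the infarcted heart, T cells enter during the days after injury beside a far larger number of macrophages and fibroblasts.

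The starts of 3 of the marker genes are shown because T-box, RUNX and STAT factors are known regulators of effector genes in lymphocytes. Each window runs from 250 bases before to 50 bases after the gene start, on the plus strand of GRCm38.p6, as given by RefSeq: Nkg7 at chr7:43436888-43437187, Ifng at chr10:118440796-118441095 and Cxcr6 at chr9:123806227-123806526. Capitals mark matches, searched on both strands, to the T-box core TCACAC or GTGTGA and its longer form TCACACCT or AGGTGTGA, which overlaps it, to RUNX letters TGTGGT or ACCACA and to STAT letters TTCNNNGAA, which reads the same on both strands.
Nkg7: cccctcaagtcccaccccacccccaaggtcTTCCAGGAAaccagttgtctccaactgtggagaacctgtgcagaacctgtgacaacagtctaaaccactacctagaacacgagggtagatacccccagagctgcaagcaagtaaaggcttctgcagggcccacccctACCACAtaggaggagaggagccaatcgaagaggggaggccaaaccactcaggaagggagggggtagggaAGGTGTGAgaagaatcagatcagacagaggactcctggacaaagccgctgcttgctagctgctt
Ifng: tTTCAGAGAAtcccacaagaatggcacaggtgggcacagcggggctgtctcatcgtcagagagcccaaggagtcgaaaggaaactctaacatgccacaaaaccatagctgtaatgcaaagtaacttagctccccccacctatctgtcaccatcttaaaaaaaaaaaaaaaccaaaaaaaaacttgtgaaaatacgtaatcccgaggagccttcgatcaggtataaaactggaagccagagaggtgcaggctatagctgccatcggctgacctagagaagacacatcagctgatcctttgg
Cxcr6: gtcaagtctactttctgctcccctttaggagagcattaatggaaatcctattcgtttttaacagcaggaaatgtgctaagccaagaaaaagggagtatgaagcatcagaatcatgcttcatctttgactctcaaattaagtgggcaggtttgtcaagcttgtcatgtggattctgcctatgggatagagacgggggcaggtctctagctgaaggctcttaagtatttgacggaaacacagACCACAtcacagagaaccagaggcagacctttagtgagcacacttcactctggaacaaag
The Nkg7 window held the core GTGTGA 12 bases before the start, within the longer form AGGTGTGA that begins 14 bases before it, ACCACA 83 bases before it and a TTCNNNGAA match 220 bases before it. In the Ifng window the only match was TTCNNNGAA, 249 bases before the start, and in the Cxcr6 window it was ACCACA, 10 bases before the start. Of 32851 RefSeq promoter windows of the same length, 14.5% held the T-box core, 1.28% its longer form, 16.8% the RUNX letters and 8.3% the STAT letters. These positions count from the RefSeq start. The GENCODE vM21 start of Nkg7, at 43437073, lies upstream of it, and by that start the T-box letters lie inside the gene. A match is a run of letters and not a shown binding site.

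The GFPhi table held 10430 barcodes with 91343549 UMIs, and GFPlo held 12344 barcodes with 104855204 UMIs. After filtering, 10125 GFPhi cells had a median of 6899 UMIs and 11959 GFPlo cells a median of 7712 UMIs. Cells over the C1q limit, which carry a macrophage signature, made up 7642 of the GFPhi cells and 55 of the GFPlo cells. Collagen-high cells, those over the collagen limit that were neither over the C1q limit nor T cells, numbered 499 in GFPhi and 7062 in GFPlo. The same barcode sequence occurred in both libraries 94 times, and 1 effector T cell had such a barcode.

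Effector T cells were shallow: a median of 3570 UMIs (range 1768 to 23014) and 1484 genes in GFPhi, against 2979 UMIs (range 1143 to 33659) and 1235 genes in GFPlo. Their summed UMIs were 116419 in GFPhi and 1050612 in GFPlo, and levels below are CPM, the usual scaled counts that divide each gene by these sums. A gene without any UMI among them could stand at up to 25.8 CPM in GFPhi and 2.86 CPM in GFPlo, taking 3 counts as the limit.

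All 17 GFPhi members and 192 of 225 GFPlo members (85.3%) held Trac, the alpha chain constant region (chromosome 14, 54220521 to 54224206, mm10), at 782 CPM in GFPhi and 682 CPM in GFPlo. Cd3g stood at 850 CPM in GFPhi and 968 CPM in GFPlo. Trbc2 stood at 1048 and Trbc1 at 352 CPM in GFPhi, against 949 and 418 CPM in GFPlo; these beta constant genes are nearly identical, so the split between them is uncertain. No member lacked Trac, Trbc1 and Trbc2 together. Trac, Trbc2 and Cd3g helped choose the members, so their levels are no support for the label of alpha-beta T cells. Of the gamma constant genes, which the rule did not use, Tcrg-C1, Tcrg-C2 or Tcrg-C4 had a UMI in 3 GFPhi and 39 GFPlo members. Among these GFPlo members, 13 had no Trac UMI. Of 8 NK markers 1 was seen in GFPhi members (25.8 CPM in all) and 5 in GFPlo members (96.1 CPM), with Ncr1, Klra8 and Klra4 at 0 in both. The rule capped Ncr1, Klrb1c, Klre1 and Klra8, while Klra4 was outside it. In GFPlo members Klre1 stood at 12.4 CPM and Klrb1c at 5.71 CPM. The rest of the 96.1 CPM lay in Klra7, Klra9 and Eomes, which were also outside the rule. The B cell genes Cd79a, Ms4a1 and Pax5 and the thymocyte genes Rag1 and Rag2 were at 0 in members of both libraries.

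Among the 4 effector genes the GFPlo members were led by Nkg7 (chromosome 7, 43437073 to 43438249), which 10 of 17 GFPhi members (58.8%) held at 490 CPM and 171 of 225 GFPlo members (76%) at 831 CPM. Icos was found in 14 GFPhi members (82.4%, 155 CPM) and 110 GFPlo members (48.9%, 192 CPM). Cxcr6 (chromosome 9, 123806475 to 123811760) was found in 4 GFPhi members (23.5%, 60.1 CPM) and 109 GFPlo members (48.4%, 187 CPM). Ifng (chromosome 10, 118441046 to 118445892) was found in 7 GFPhi members (41.2%, 447 CPM) and 59 GFPlo members (26.2%, 87.6 CPM). Most GFPhi members thus entered through Icos or Nkg7, and Ifng RNA was seen in a minority of members of either library.

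NK cells, a class like the members in function, also held some of these genes: in GFPlo 83 of 86 NK cells (96.5%) had Nkg7, at 1860 CPM, 29.1% Ifng, 9.3% Cxcr6 and 2.33% Icos. Collagen-high cells seldom held them. The members were chosen by these genes and by receptor genes such as Trac, and collagen-high cells were by definition not T cells. The values of the 2 classes that follow are therefore description only. In collagen-high GFPlo cells, with a median of 9283.5 UMIs against 2979 in the members, 3.5% had a Trac UMI, 0.411% Nkg7, 0.142% Ifng, 0.127% Cxcr6 and 0.184% Icos. With every cell thinned to 1000 UMIs, Trac was in 51.1% of GFPlo members against 0.317% of collagen-high cells, and Nkg7 in 57.3% against 0.0865%. After the same thinning 76.5% of GFPhi members kept Trac, 41.2% Nkg7, 23.5% Ifng, 5.88% Cxcr6 and 29.4% Icos.

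Cells lay on both sides of each threshold. Of the GFPlo members, 14 held only 2 of the 5 CD3 and receptor genes and 131 held all 5, while 13 cells just outside held 1; in GFPhi no member held fewer than 4, 12 held all 5 and 1 cell just outside held 1. A single effector gene carried 8 GFPhi and 70 GFPlo members, and all 4 were present in 2 GFPhi and 12 GFPlo members. Collagen UMIs per 10000 reached 88.2 in GFPhi and 95.8 in GFPlo inside the limit, and the nearest cells outside stood at 181 in GFPhi and 104 in GFPlo. C1q UMIs per 10000 reached 25.5 in GFPhi and 2.21 in GFPlo inside, with the nearest cells outside at 37.6 in GFPhi and 145 in GFPlo.

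Effector T cells were 0.168% of GFPhi cells (0.0978 to 0.269) and 1.88% of GFPlo cells (1.65 to 2.14), an 11.2-fold lower share in GFPhi (6.84 to 19.6). Much of the denominator of GFPhi was C1q-high. Outside C1q-high cells the shares were 0.685% of 2483 GFPhi cells (0.399 to 1.09) and 1.89% of 11904 GFPlo cells (1.65 to 2.15), a 2.76-fold lower share in GFPhi (1.69 to 4.82). Among cells with at least 2 of the 5 CD3 and receptor genes, effector cells were 17 of 116 in GFPhi (14.7%, 8.78 to 22.4) and 225 of 638 in GFPlo (35.3%, 31.6 to 39.1), 2.41-fold lower in GFPhi (1.47 to 4.2). That last base carried no C1q or collagen limit, unlike the members. The sort can set all 3 shares, and a share says nothing of the number of cells in the heart.

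**Figure D1:**
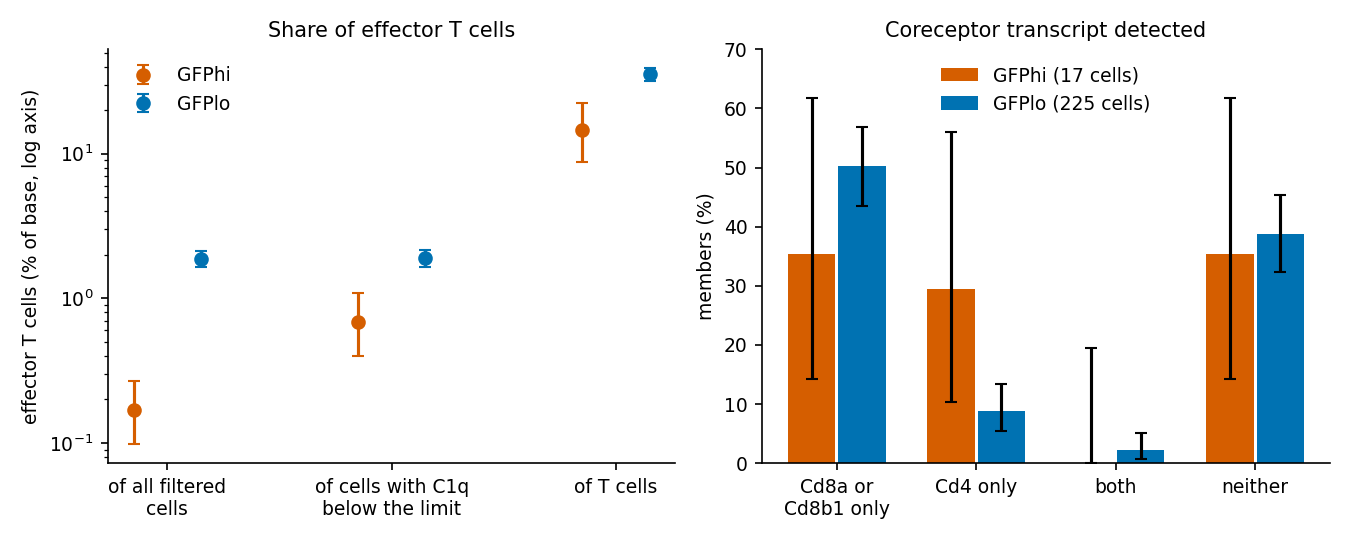
Left, share of effector T cells (percent, log axis, points with exact 95% intervals) in GFPhi and GFPlo over 3 denominators; right, percent of members by coreceptor transcript (bars with exact 95% intervals). The GFPhi share lies below the GFPlo share in each denominator, at 0.168% against 1.88% of all cells and 14.7% against 35.3% of T cells, and Cd4 members are 29.4% of GFPhi against 8.89% of GFPlo members, with wide GFPhi intervals.

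Most T cells outside the rule lacked an effector gene. Of 116 GFPhi T cells, 93 had none of the 4 effector genes, 2 were left out for a thymocyte gene, 1 for Trdc, 1 for NK genes and 2 for the C1q or collagen limits. Of 638 GFPlo T cells the same steps took 294, 43, 35, 13 and 28. The steps were taken in this order, so the 93 and 294 cells include thymocyte-like cells and may include cells over the C1q or collagen limits. Only 32 GFPhi and 54 GFPlo cells without an effector gene met every other condition of the rule. Thymocyte-like T cells, those with a thymocyte gene, no Trdc and values within the C1q and collagen limits, whether or not they held an effector gene, were 33.6% of T cells in GFPhi and 18.5% in GFPlo. Effector-gene-negative T cells, which met every other condition of the rule but held none of the 4 genes, were 27.6% in GFPhi and 8.46% in GFPlo. These thymocyte-like cells held a median of 1320 UMIs in GFPhi and 2470.5 UMIs in GFPlo, and the effector-gene-negative T cells 1968.5 and 1886.5 UMIs; a shallower cell can miss an effector gene. In 1 alternative, every cell was thinned to 1000 UMIs before the rule, and shallower cells were left out. Effector cells were then 9 of 83 T cells in GFPhi (10.8%) and 154 of 429 in GFPlo (35.9%). The part of depth in the difference at full depth was not tested.

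Coreceptor genes split the members. A Cd8a or Cd8b1 UMI without Cd4 was found in 6 of 17 GFPhi members (35.3%, 14.2 to 61.7) and 113 of 225 GFPlo members (50.2%, 43.5 to 56.9). Cd4 without Cd8 was found in 5 GFPhi members (29.4%, 10.3 to 56) and 20 GFPlo members (8.89%, 5.51 to 13.4). Neither was found in 6 GFPhi (35.3%) and 87 GFPlo members (38.7%, 32.3 to 45.4), and both in 0 GFPhi and 5 GFPlo members. The Cd4 intervals of the libraries overlapped, as did the Cd8 intervals, which does not show that the shares are alike. Cells without a coreceptor UMI are not shown to lack the protein, since thinning the cells to 1000 UMIs lowered the GFPlo Cd8 share to 33.3%.

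Most GFPlo members with Nkg7 were Cd8 cells, and few without it were. Of 171 members with Nkg7, 110 were Cd8 cells, 10 Cd4 cells, 1 held both and 50 neither. Of the 54 members without it, 3 were Cd8 cells, 10 Cd4 cells, 4 held both and 37 neither. In GFPhi the 10 members with Nkg7 were 6 Cd8, 2 Cd4 and 2 neither, and the 7 without it were 0 Cd8, 3 Cd4 and 4 neither. The rule let a cell in through any of its 4 genes, so part of this pattern is set by how the cells were chosen.

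Cd8 members of GFPlo held more of several chemokine and granule genes than Cd4 members. Of 2906 genes tested (at least 20 UMIs and 50 CPM in 1 of the groups), 525 were past 2-fold (18.1%), 397 higher in Cd8 (13.7%) and 128 lower (4.4%), and median-of-ratios scaling gave 334 higher and 177 lower; a gene with 20 UMIs is a high level in the 97666 UMIs of the 20 Cd4 members, against 515570 in the 113 Cd8 members. Of 8 cytotoxic granule genes measured, Nkg7 left out, 5 were 2-fold higher in Cd8 members, with a list median of 1.83 log2 units against 0.09 over all tested genes. Of 6 cytokine receptor genes measured, 1 was higher and 1 lower. Ccl5, a chemokine of activated T cells, stood at 2888 CPM in Cd8 and 686 CPM in Cd4 members, a ratio of 4.21 (3.3 to 5.46). Nkg7, which the rule used, stood at 1315 CPM in Cd8 and 174 CPM in Cd4 members.

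Granzymes are serine proteases of cytotoxic granules. Gzmk stood at 204 CPM in Cd8 members and 30.7 CPM in Cd4 members (3 UMIs), a ratio of 6.63 (2.21 to 32.7). Gzmb stood at 194 CPM in 31 of 113 Cd8 members and 51.2 CPM in Cd4 members, where all 5 UMIs lay in 1 cell. Gzma stood at 145 CPM in Cd8 and 0 CPM in Cd4 members, at least 4.74-fold higher in Cd8, but 1 cell held 35 of its 75 UMIs. Ccl4 was at least 8.08-fold higher in Cd8 members, at 248 CPM against 0 CPM. Ly6c2, a surface marker of memory-type CD8 cells, was 16.9-fold higher (6.55 to 62.4), at 692 CPM in Cd8 and 41 CPM in Cd4 members.

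Dapl1 (at least 4.29-fold higher in Cd8 members, 132 CPM) and Prg4 (at least 5.49-fold, 41 of 87 UMIs in 1 cell) completed the named genes higher in Cd8 members, with Fabp4, of which 1 cell held 130 of 150 UMIs. The genes lower in Cd8 members rested on few cells. Il6, Ccl7, Ccl2 and Saa3, which are genes of stromal and myeloid inflammation, were 232, 52.8, 37.8 and 23.9-fold lower, but 1 Cd4 cell held 44 of 44, 59 of 60, 88 of 93 and 273 of 276 of their UMIs. Il1r1 was 60.7-fold lower in Cd8 members with 15 of 23 Cd4 UMIs in 1 cell, and Igfbp5, Has1, Hk2 and Meg3 were 11.6 to 17.2-fold lower. Of the naive and memory list, Il7r stood at 114 CPM in Cd8 and 287 CPM in Cd4 members. Markers of stromal cells differed too. The endothelial list was higher for 3 of 3 measured genes, with sums of 254 CPM in Cd8 and 102 CPM in Cd4 members. The fibroblast list summed to 3532 CPM in Cd8 and 5539 CPM in Cd4 members. Of its 6 measured genes, 2 were past 2-fold higher in Cd8 members and 0 lower, with a median of -0.59 log2 units. The part of these lists in the difference was not tested.

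**Figure D2:**
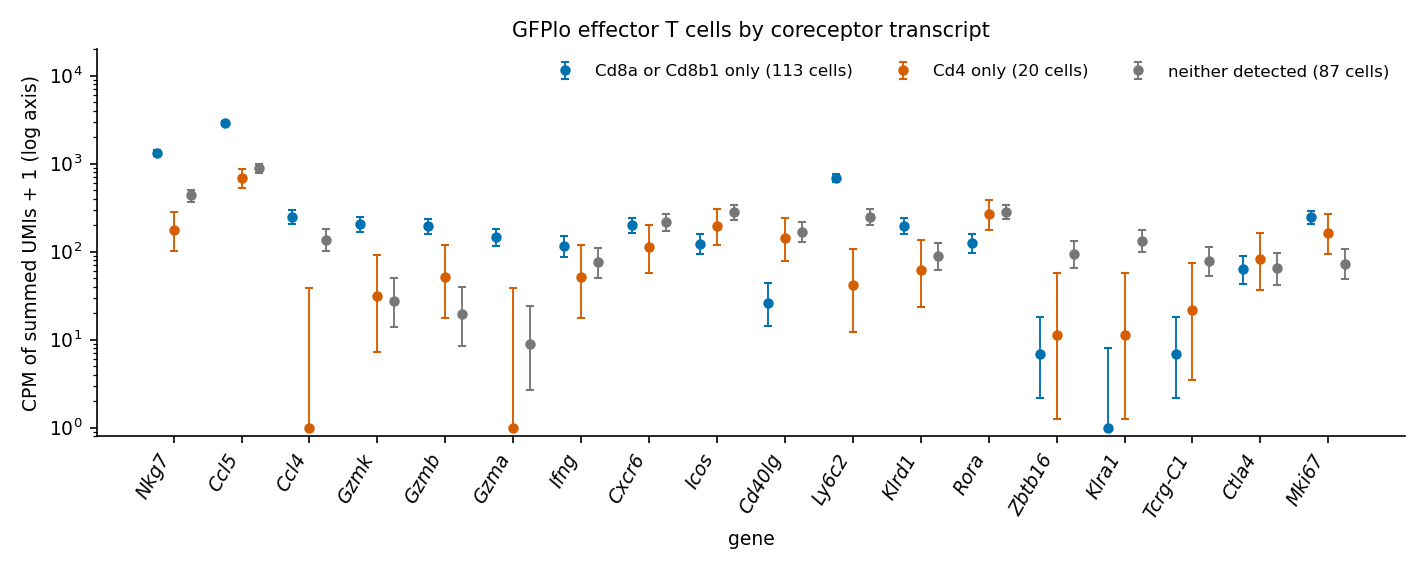
Levels (CPM of summed UMIs plus 1, log axis, points with exact 95% intervals) of effector and other genes in GFPlo members with Cd8, with Cd4 and with neither coreceptor. Nkg7 stood at 1315 CPM with Cd8, 174 CPM with Cd4 and 435 CPM with neither, and Ccl5 at 2888, 686 and 884 CPM in the same order.

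Effector genes were unevenly shared among GFPlo members. Nkg7 and Ccl5 occurred together in 125 members, Nkg7 and Cxcr6 in 79, and Icos and Cxcr6 in 55. Of the 59 members with Ifng, 57 held Nkg7 and 50 held Ccl5, and of 58 with Ccl4, 55 held Ccl5. Gzmb met Gzmk in 20 members, Gzma in 11 and Prf1 in 5. In all, 3 GFPhi members and 85 GFPlo members held a UMI of any of Gzma, Gzmb, Gzmk and Prf1, so most members of either library showed no UMI of these cytolytic genes. Mki67 or Top2a, genes of dividing cells, were found in 6 GFPhi and 61 GFPlo members. The GFPlo ones were 37 Cd8, 7 Cd4 and 13 neither cells, the rest holding both coreceptors.

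NK cells offered the nearest comparison, as cytotoxic lymphocytes without a T cell receptor. Of 3121 genes tested in GFPlo, 515 were past 2-fold (16.5%), 341 higher in effector T cells (10.9%) and 174 lower (5.58%); the GFPhi library held only 2 NK cells. Of the T cell receptor list, 4 of 12 measured genes that did not choose the cells were higher and 0 lower. Genes outside the rule pointed the same way: Cd8b1 was at least 36.2-fold higher, Cd8a at least 21.6-fold, Themis, a receptor-signalling gene, at least 20.6-fold and Cd5 at least 14.1-fold, each with 0 UMIs in 86 NK cells. Cd40lg, the CD40 ligand of helper cells, was at least 9.89-fold higher.

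Cytotoxic granule genes were lower in effector T cells than in NK cells, with 6 of 11 genes other than Nkg7 2-fold lower, 0 higher and a list median of -1.10 log2 units against 0.01 over all tested genes. Gzma stood at 74.2 CPM in effector T cells and 3102 CPM in NK cells, 41.8-fold lower (33.2 to 53.3). Prf1, the pore-forming perforin, stood at 18.1 CPM in effector T cells and 208 CPM in NK cells, 11.5-fold lower (6.84 to 20.2). Gzmb stood at 108 CPM in effector T cells and 154 CPM in NK cells, a ratio of 0.7 (0.498 to 0.994), and Gzmk at 112 and 57.3 CPM, a ratio of 1.96 (1.2 to 3.37). Nkg7 stood at 831 CPM in effector T cells and 1860 CPM in NK cells.

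Other effector genes were split. Ccl5 differed little, at 1796 CPM in effector T cells and 2153 CPM in NK cells, and so did Ifng, at 87.6 and 106 CPM (ratio 0.83, 0.557 to 1.26). Xcl1, a chemokine for cross-presenting dendritic cells, was 12.8-fold lower (10.8 to 15.2), and Ccl4 was 3.33-fold lower. Cxcr6 was 4.42-fold higher in effector T cells (187 against 42.2 CPM) and Ccr2, a monocyte and lymphocyte chemokine receptor, 3.87-fold lower (98 against 380 CPM). Ifng and Cxcr6, like Nkg7 above, helped choose the members and not the NK cells, so their ratios are description only. Interferon-response genes were higher in effector T cells for 4 of 6 measured and lower for 0, with a median of 1.99 log2 units; Ifi27l2a stood at 808 CPM against 63.3 CPM in NK cells and Ly6a at 366 CPM against 21.1 CPM. Stromal markers moved the same way. The fibroblast list was higher for 4 of 6 measured genes and summed to 4464 CPM in effector T cells and 1857 CPM in NK cells. The endothelial list was higher for 2 of 3 (261 against 72.4 CPM) and the mesothelial list for 2 of 2 (394 against 39.2 CPM). Their part in the difference was not tested.

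The signalling adaptors of NK cells were nearly absent from the members. Tyrobp was 376-fold lower (160 to 1163), Fcer1g 93.4-fold lower (61.2 to 150) and Klrb1b 364-fold lower, with 1 UMI in the members. Klra4 had 0 UMIs in the members and was at least 228-fold lower, and Aoah at least 44.3-fold lower. Cxcl13 was 146-fold lower, but a single NK cell held all 323 of its UMIs. Mt2 and Timp1, which stromal cells also express, were 23-fold and 28.6-fold higher in effector T cells, with 148 of 438 Mt2 UMIs and 72 of 272 Timp1 UMIs in 1 cell each.

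Thymocyte-like T cells, which carried Dntt, Arpp21 or Ptcra, differed most widely. Of 3712 genes, 1059 were past 2-fold (28.5%), 475 higher in effector T cells (12.8%) and 584 lower (15.7%), and median-of-ratios scaling turned this split to 602 higher and 408 lower, since the median tested gene stood at -0.24 log2 units. Apart from Ifng, which chose the cells, 9 of 9 measured type 1 genes were 2-fold higher in effector T cells, with a list median of 2.85 log2 units. The chemokine Ccl5 stood at 1796 CPM in effector T cells and 2.09 CPM (1 UMI) in thymocyte-like cells, a ratio of 860 (154 to 33975). Ly6c2 was at least 68.9-fold higher, the granule cysteine protease Ctsw at least 43.3-fold, the regulator Hopx at least 29-fold and Xcl1 at least 26.7-fold.

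Class I antigen presentation was also higher in effector T cells than in thymocyte-like cells for 7 of 10 genes, 1 being lower. H2-K1 stood at 1887 CPM in effector T cells and 196 CPM in thymocyte-like cells, 9.61-fold higher (7.81 to 11.9), and B2m at 3751 and 1095 CPM. Interferon-response genes were higher for 6 of 6. Of other cell types' markers, the endothelial list was higher for 2 of 3 measured genes (sums of 261 CPM in effector T cells and 68.9 CPM in thymocyte-like cells) and the fibroblast list for 0 of 6; their part was not tested. Genes of the cell cycle were 2-fold lower for 9 of 13, with Hist1h1b at 188 CPM against 760 CPM. Gzma ran the other way from the other granule genes, at 74.2 CPM in effector T cells and 175 CPM in thymocyte-like cells.

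Early T cell genes led the lower side. Tcf7, a regulator of T cell development, stood at 85.7 CPM in effector T cells and 641 CPM in thymocyte-like cells, 7.49-fold lower (5.9 to 9.58). Lef1, its relative, was 3.94-fold lower and Satb1 6.19-fold lower. Cd24a was 147-fold lower and Ly6d 1139-fold lower, with 1 Ly6d UMI in the members. Myl10, Endou, Aqp11, Dnajc6 and Colq had 0 UMIs in the members and were at least 23.4-fold to at least 107-fold lower. On the higher side Ms4a4b, AW112010 and Gimap4 stood at 985, 1133 and 184 CPM in effector T cells against 8.36, 39.7 and 2.09 CPM, and Saa3 rested on 1 cell with 571 of 1213 UMIs.

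Effector-gene-negative T cells, which the rule also required to hold receptor genes, had few granule and chemokine UMIs. Of 3036 genes, 665 were past 2-fold (21.9%), 328 higher in effector T cells (10.8%) and 337 lower (11.1%). This balance turned with the settings: 316 were higher and 228 lower without the cell with the most UMIs of each group, 328 and 506 with at least 10 UMIs, and 2578 and 1736 with no filter beyond 3 UMIs. Trac, Cd3d, Cd3e and Cd3g, which the rule used in both classes, were 2.02 to 2.3-fold higher in effector T cells. Of 7 measured granule genes other than Nkg7, which defines the comparison, 6 were higher and 0 lower. Their median was 4.77 log2 units, and 2.64 with the genes at 0 set to their bound.

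The chemokine Ccl5 stood at 1796 CPM in effector T cells and 43.8 CPM in effector-gene-negative T cells, a ratio of 41 (22.9 to 82.4), and 3 of 54 cells of that class held it. Ccl4 was at least 14.3-fold higher, Gzmk at least 9.41-fold and Gzmb at least 9.01-fold, each at 0 UMIs in that class. Ctsw was 34.1-fold higher (9.35 to 283; 2 UMIs in that class), Xcl1 42.1-fold (7.46 to 1673; 1 UMI) and Ly6c2 13.6-fold (6.83 to 31.6). Cxcr3, a receptor of interferon-induced chemokines, stood at 99.9 CPM against 3.98 CPM (1 UMI), and the cytokine receptor gene Il2rb at 115 CPM against 11.9 CPM (3 UMIs).

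Resting genes were lower in effector T cells, with 5 of 9 naive and memory genes past 2-fold, 0 higher and a median of -1.22 log2 units. Lef1 stood at 110 CPM in effector T cells and 446 CPM in effector-gene-negative T cells, Satb1 at 117 and 481 CPM, and Tcf7 at 85.7 and 199 CPM. Ccr9, a gut and thymus homing receptor, was 37.6-fold lower (11.6 to 194) with 3 UMIs in the members, and 17 of the 54 cells held it. Ighg2b, Jchain, Rarres1, Iglv1, Ighv1-66 and Igkv6-20 were lower through 1 cell of the effector-gene-negative class, which held 2364 of 2364 Ighg2b UMIs. The mesothelial list was lower in effector T cells for 5 of 5 genes, with a median of -2.79 log2 units and sums of 394 CPM in 30 of 225 effector T cells and 2646 CPM in 7 of 54 effector-gene-negative T cells. The plasma cell list was lower for 2 of 2 measured genes, with 264 of 298 UMIs of the effector-gene-negative class in 1 cell. The mural list summed to 118 CPM in effector T cells and 756 CPM in that class, and the endothelial list, higher for 3 of 3, to 261 and 63.7 CPM. The part of these markers in the differences was not tested. Krt14, Bok and Apela were 41.8, 55.7 and 69-fold lower, from 3 to 5 cells of that class.

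**Figure D3:**
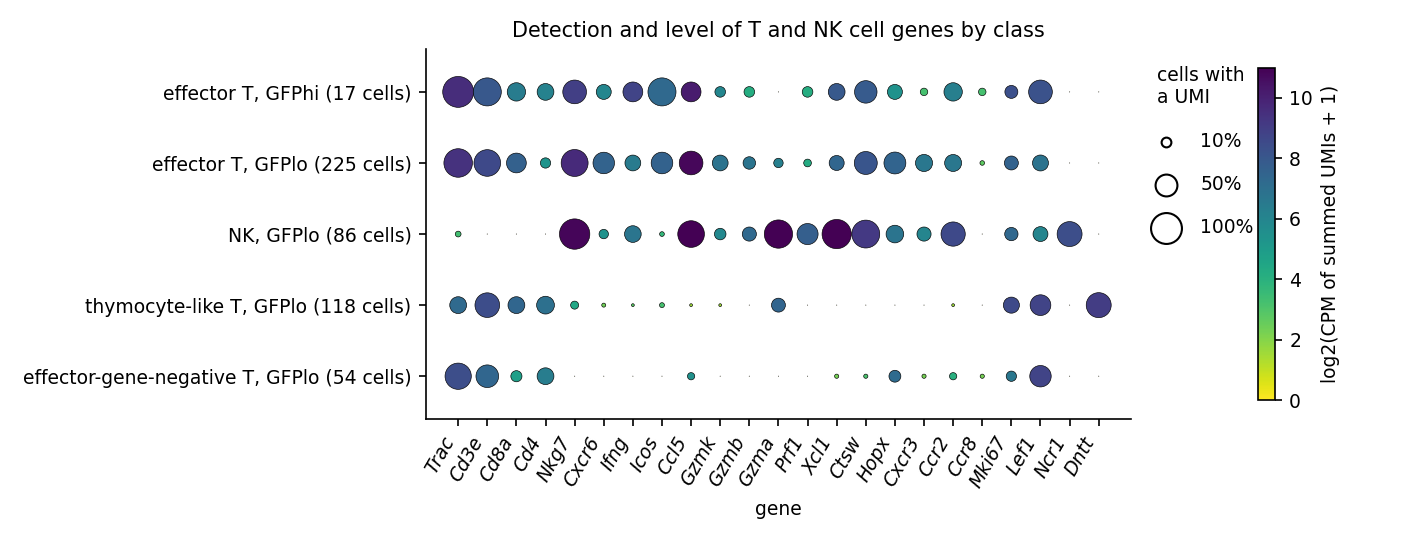
Dot plot of marker and effector genes (columns) in effector T cells of GFPhi and GFPlo and in NK, thymocyte-like and effector-gene-negative T cells of GFPlo (lines of dots); dot area is the percent of cells with a UMI, and colour is log2 of the CPM of summed UMIs plus 1, with the darkest colour standing for the top of the scale and above. In GFPlo, Gzma is at 74.2 CPM in effector T cells against 3102 CPM in NK cells, and Ccl5 at 1796 CPM in effector T cells against 2.09 CPM in thymocyte-like cells.

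**Figure D4:**
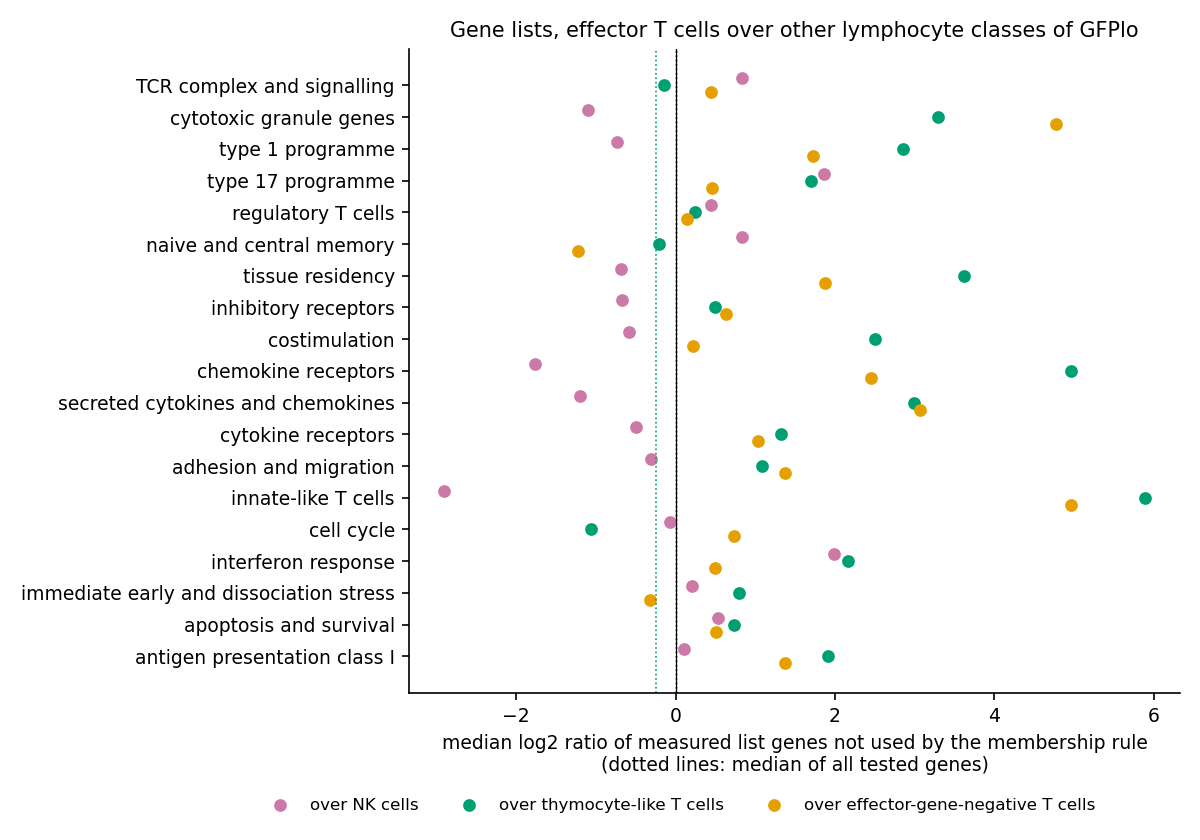
Median log2 ratio (horizontal axis) of each gene list in effector T cells over NK, thymocyte-like and effector-gene-negative T cells of GFPlo, with genes of the membership rule left out; dotted lines are the medians of all tested genes. The cytotoxic list lies at -1.10 over NK cells and at 3.29 over thymocyte-like cells.

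GFPhi members differed from GFPlo members in 391 of 2857 genes (13.7%), 83 higher (2.91%) and 308 lower (10.8%). The limits fall unevenly here: a gene with 20 UMIs stands at 172 CPM in GFPhi members, so few low genes could pass through GFPhi. Of the 83 genes higher in GFPhi members, 45 had more GFPhi UMIs in 1 cell than in all others together and 15 were in 1 cell only, while 38 were spread over at least 3 cells.

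The chemokine and cytokine genes came from 1 GFPhi cell. This Cd4 cell of 20019 UMIs held all 225 Ccl1 UMIs, all 66 Csf2 UMIs, 48 of 49 Lta, 19 of 21 Ccl3, 9 Il13 and 14 Mki67 UMIs. Ccl1, a ligand of CCR8, therefore stood at 1933 CPM in GFPhi and 7.61 CPM in GFPlo members, a ratio of 254 (127 to 595), and at 0 CPM in GFPhi without that cell. Csf2, encoding GM-CSF, stood at 567 and 3.81 CPM. Without the cell the Lta ratio was 0.681 and the Ccl3 ratio 1.68. The list of secreted cytokines, with 4 of 10 genes other than Ifng higher in GFPhi and 0 lower, rests on this cell.

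Interferon gamma shared that source in part. Ifng stood at 447 CPM in GFPhi and 87.6 CPM in GFPlo members, a ratio of 5.1 (3.56 to 7.24), and the same cell held 37 of the 52 GFPhi UMIs. Without it the ratio was 1.78 (0.956 to 3.09). Another GFPhi cell, a Cd8 cell of 23014 UMIs, held 424 UMIs of the matrix gene Mgp, all 29 Col1a1 UMIs, all 25 Fabp3 UMIs and all 50 Gpx3 UMIs of the GFPhi members, and all 51 UMIs of the mesothelial list. Cdkn1c had 26 of 29 GFPhi UMIs in 1 cell, and Penk all 20.

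Spread over more GFPhi cells were Lyz2 and C1qb, macrophage genes. Lyz2 had 38 UMIs in 13 of 17 GFPhi members (76.5%, 326 CPM) and 1 UMI in 225 GFPlo members (0.444%), and C1qb, which the rule capped, 24 UMIs in 13 GFPhi members and 1 UMI in GFPlo members. Lyz2 was as widely seen in other GFPhi cells. It was in 66.7% of thymocyte-like, 87.5% of effector-gene-negative and 94.4% of collagen-high cells, with medians of 1320, 1968.5 and 20713 UMIs. After thinning, Lyz2 was in 35.3% of GFPhi members, 52.6% of thymocyte-like, 51.7% of effector-gene-negative and 20.3% of collagen-high cells, and in 0.677% of collagen-high GFPlo cells. Ccl4, which C1q-high GFPhi cells held at 3501 CPM, was in 58.8% of GFPhi members and also in 38.5% of GFPhi thymocyte-like cells. The macrophage list summed to 1684 CPM over 8 of 10 genes in GFPhi members and 378 CPM over 6 of 10 in GFPlo members, with Adgre1 and Mrc1 at 0 in both; its part in the difference was not tested.

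Stromal genes were mixed in GFPhi members. Of 6 fibroblast markers measured, Col1a1 and Postn were past 2-fold lower in GFPhi and 0 were higher, with a median of -0.31 log2 units. Col3a1 had a ratio of 1.32 and Lum of 1.4, with 122 of 178 and 19 of 20 GFPhi UMIs in 1 cell. Of 3 endothelial markers Emcn was higher (2.43-fold, all 21 GFPhi UMIs in 1 cell), and of 2 mesothelial markers 0 were past 2-fold. Other stromal genes were among the named genes lower in GFPhi members. Col8a1 had 0 UMIs in GFPhi and 188 in GFPlo members, at least 6.94-fold lower in GFPhi; Cthrc1, Mfap4, Sparcl1 and Fndc1 were likewise at 0 in GFPhi and at least 5.47, 4.4, 4.03 and 3.62-fold lower. Mfap5, Gsn, Slpi and Igfbp6 were 20.1, 12.2, 19.3 and 8.64-fold lower, with 1 to 4 GFPhi UMIs. Fabp4 was 9.75-fold lower, with 130 of 176 GFPlo UMIs in 1 cell. Col1a1 UMIs were in 5.88% of GFPhi and 63.1% of GFPlo members, and also in 60.5% of GFPlo NK cells, 66.1% of GFPlo thymocyte-like cells and 63.6% of GFPlo C1q-high cells. The fibroblast list, all 7 of 7 genes, summed to 3668 CPM in GFPhi members, where 1 cell held 309 of 427 UMIs, and 4464 CPM in GFPlo members. The part of free RNA in the difference of these genes was not tested.

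Some of the T cell genes that other cell types share less also differed between the libraries, while Prf1 differed little. Lef1 was higher in GFPhi members, at 301 CPM in 10 of 17 cells against 110 CPM in 60 of 225 GFPlo members (ratio 2.72, 1.81 to 4), and the ratio was 1.82 without its leading cell. Cxcr3 was lower, at 8.59 CPM (1 UMI) in GFPhi and 99.9 CPM in GFPlo members, a ratio of 0.0859 (0.00216 to 0.489). Gzma had 0 UMIs in GFPhi and 78 in GFPlo members, at least 2.88-fold lower, and 35 of the 78 lay in 1 GFPlo cell. Gzmb stood at 17.2 CPM (2 UMIs) in GFPhi and 108 CPM in GFPlo members, a ratio of 0.16 (0.0191 to 0.59). Prf1 stood at 17.2 CPM in GFPhi and 18.1 CPM in GFPlo members, with 2 and 19 UMIs.

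The cytotoxic list without Nkg7 had 3 of 7 measured genes lower and 0 higher in GFPhi members, with a median of -0.81 log2 units against -0.02 over all tested genes. Gzma, Gzmb and Cst7 were the 3. Ccl5 stood at 1151 CPM in 7 GFPhi members and 1796 CPM in 132 GFPlo members, a ratio of 0.641 (0.534 to 0.764), and 0.414 without the GFPhi cell that held 50 of its 134 UMIs. Interferon-response genes were lower for 3 of 6 and higher for 0: Ly6a stood at 112 CPM in GFPhi and 366 CPM in GFPlo members (ratio 0.305, 0.161 to 0.527) and Ifi27l2a at 361 and 808 CPM. Class I genes had a median of -0.65 log2 units, 1 of 10 being past 2-fold. H2-K1 stood at 979 CPM in GFPhi and 1887 CPM in GFPlo members, a ratio of 0.519 (0.426 to 0.627). The receptor list had 0 of 17 genes past 2-fold.

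**Figure D5:**
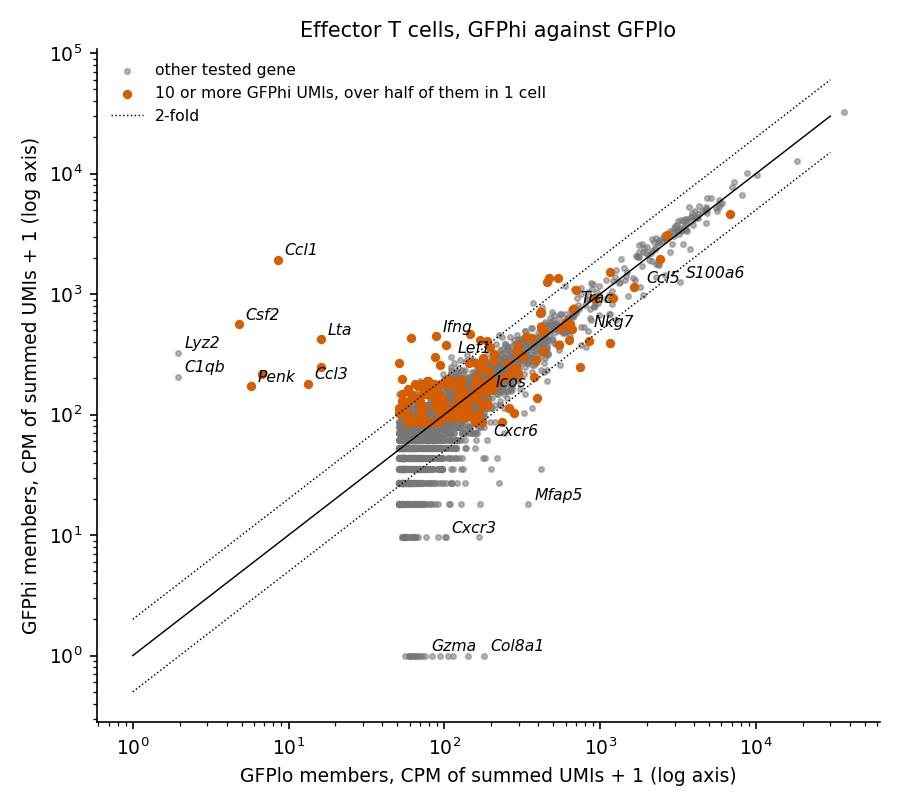
CPM of summed UMIs plus 1 of each tested gene in GFPhi members (vertical) against GFPlo members (horizontal), on log axes, with dotted lines at 2-fold; orange points have at least 10 GFPhi UMIs, most of them in 1 cell. Ccl1 (1933 CPM in GFPhi against 7.61 CPM in GFPlo) and Csf2 (567 against 3.81 CPM) are such points.

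Chemokine receptor genes bear on the recruitment of lymphocytes that the series title names. Ccr2 was in 6 of 17 GFPhi members at 77.3 CPM (9 UMIs) and 68 of 225 GFPlo members at 98 CPM, a ratio of 0.789 (0.351 to 1.56). Ccr1 was seen as 1 UMI in GFPhi and 5 UMIs in 2 cells of GFPlo, and Ccr8, a receptor of CCL1 and CCL8 in mouse, as 1 UMI in GFPhi and 6 UMIs in 5 cells of GFPlo (5.71 CPM). Cxcr6 and Cxcr3 were the other receptors measured and were past 2-fold lower in GFPhi members. Ccr2 was in 31.9% of GFPlo Cd8, 35% of Cd4 and 27.6% of neither cells, and in 0.382% of collagen-high GFPlo cells.

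The reporter and p16 were near the counting limit in these cells. The gene of p16, Cdkn2a, had 3 UMIs in 2 GFPhi members (25.8 CPM) and 4 UMIs in 4 GFPlo members (3.81 CPM). The reporter feature mGFP had 3 UMIs in 2 GFPhi members (25.8 CPM) and 16 UMIs in 13 GFPlo members (15.2 CPM). With collagen-high cells at 27.3 CPM in GFPhi and 21.6 CPM in GFPlo for mGFP, the transcript did not set GFPhi members apart at this depth.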

How the data were processed

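The deposited files were matrices of UMI counts per gene and cell, 1 per library, and the count values were whole numbers as the authors deposited them. Per the labels, libraries were made with a SeekOne DD 3′ kit, while another label field names 10x Genomics. Per the submitters' processing notes the build was mm10; the aligner and counting program are not stated: not given in the sources used here. Python 3.11.15, numpy 2.4.6, scipy 1.17.1, pandas 2.3.3 and matplotlib 3.10.9 were used.

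The cell filter required 300 genes and 500 UMIs or more, and no more than 20% mitochondrial UMIs. No doublet caller was run; cells above the 99th percentile of UMIs were left out as an alternative. UMIs were summed per class and library and scaled to CPM. Genes with at least 20 UMIs and 50 CPM in 1 of 2 groups were tested, meaning measured, and counted as called past 2-fold. Log2 ratios used a prior count of 0.5, and a count of 0 was read as allowing 3. Intervals are exact Clopper-Pearson, Poisson or conditional. Thinning drew 1000 UMIs per cell with seed 1. Scripts were tested on simulated data.

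The marker genes, genes of the rule, coreceptors, granule and chemokine receptor genes, Cdkn2a and mGFP were always named, apart from 1 gene that is not reported here. For each comparison so were 10 genes per direction by the nearer interval bound; mitochondrial, ribosomal, haemoglobin and predicted genes were passed over. Other names were picked with their values in view. The members and lists were chosen with earlier results of these data known. Positions came from GENCODE vM21.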

Additional observations from a re-analysis of the deposited data

How the results depend on the processing

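No paired analysis was possible because each group is 1 library. The GFPhi over GFPlo ratio of the share of effector T cells was 0.0678 to 0.0996 over all cells, 0.302 to 0.464 over T cells and 0.278 to 0.436 outside C1q-high cells, below 1 under every alternative run. Thinning to 1000 UMIs moved the Cd8 share of GFPlo members to 33.3%, against 50.2% at full depth. With no filter beyond 3 UMIs, the genes past 2-fold numbered 5194 for GFPhi over GFPlo, 4134 for NK cells, 4736 for thymocyte-like cells (2759 higher in effector T cells and 1977 lower), 4314 for effector-gene-negative cells (2578 and 1736) and 4204 for Cd8 over Cd4, since 10076 to 12244 genes were then counted.

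Median-of-ratios scaling gave 602 genes higher and 408 lower against thymocyte-like cells, and 334 and 177 for Cd8 over Cd4. The share of higher genes in GFPhi members was 33% with at least 10 UMIs, against 21.2%. Log2 ratios of single genes changed sign as follows. Fabp4 in GFPhi over GFPlo was 0.10 with each cell weighted equally. Without the cell with the most UMIs of each group, Fabp3 was -0.26, Gpx3 -3.54, Cxcl13 (over NK) 2.17 and Saa3 (Cd8 over Cd4) 1.49. Without the GFPhi cell that held the Ccl1 UMIs, chosen after seeing the data, Ccl1 was -0.64, Lta -0.01 and Penk -0.01. Without the GFPhi cell with the most UMIs of the gene, also chosen after seeing the data, Fabp3 was -0.21 and Gpx3 -3.50, with the same values for Ccl1, Lta and Penk. Of the other alternatives for single genes, 568 moved by less than 1 log2 unit and 59 by more. The 17 GFPhi members limit every GFPhi value.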

Other observations

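GFPlo members with neither coreceptor gene held more of several genes than Cd8 members. Among the 87, Zbtb16, a regulator of innate-like T cells, stood at 93.4 CPM (35 UMIs in 19 cells), against 5.82 CPM in the 113 Cd8 members. Tcrg-C1 stood at 77.4 CPM (17 cells), Tcrg-C4 at 61.4 CPM and the receptor gene Il23r at 61.4 CPM (14 cells each), against 5.82, 0 and 3.88 CPM in Cd8 members. Klra1 had 50 UMIs in 11 of these cells and 0 in Cd8 members. Il7r stood at 339 CPM and Rora at 283 CPM, against 114 and 124 CPM in Cd8 members. Cd4 members of GFPlo were close to the neither cells for these 2 genes, at 287 and 266 CPM. Il17a and Il4 were seen in 4 cells each, with 5 UMIs each, and 15 of 29 Areg UMIs lay in 1 cell. These genes were chosen after their values were seen.

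Foxp3, the regulator of regulatory T cells, had 0 UMIs in GFPhi members and 12 UMIs in 5 GFPlo members. Of these, 8 UMIs lay in 4 of the 5 cells with both coreceptors and 4 UMIs in 1 Cd4 cell. In the 5 cells with both coreceptors Ctla4 stood at 574 CPM, Ikzf2 at 367 CPM and Il2ra at 287 CPM. These 5 cells held a median of 12705 UMIs (range 2807 to 22274), against 2979 UMIs in all GFPlo members. The part of depth or doublets in their profile was not tested.

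Variable segments were sparse. GFPlo members held 35 Trbv UMIs in 29 cells, with Trbv2 in 5, and 27 Trav UMIs in 17 cells; Trgv2 had 26 UMIs in 17 cells.

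Exhaustion genes differed in how widely they were seen. Pdcd1 was in 1 GFPhi member and 20 GFPlo members (30.5 CPM), and Lag3 in 0 GFPhi and 5 GFPlo members. Tox was in 8 of 17 GFPhi members (198 CPM) and 78 of 225 GFPlo members (156 CPM), and Ctla4 in 4 GFPhi (34.4 CPM) and 38 GFPlo members (95.2 CPM). Of 5 residency genes measured outside the rule, 2 were past 2-fold lower in GFPhi members and 0 higher, with a median of 0.42 log2 units. Cd69 stood at 68.7 CPM in GFPhi and 160 CPM in GFPlo members, Itga1 at 8.59 and 63.8 CPM, and Itgae at 17.2 and 9.52 CPM. In GFPhi members 8.59 CPM is 1 UMI and 17.2 CPM is 2 UMIs. Rgs1 stood at 490 CPM in GFPhi and 328 CPM in GFPlo members, Rgs2 at 309 and 234 CPM, and Xcl1 at 249 and 168 CPM.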
